A study of Mus musculus with 4 samples.

Results

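The genes described here encode the switch that starts a division cycle: the D cyclins (Ccnd1, Ccnd2, Ccnd3), their kinases (Cdk4, Cdk6) and the proteins that block those kinases (Cdkn1a, Cdkn1b, Cdkn1c, Cdkn2c, Cdkn2d). Members were the probe sets of the deposited table that the platform annotation assigned to a single one of these 10 gene symbols. The rule found 10 probe sets, out of 35556 in all, for 9 of the 10 genes. Cdkn1b had 2 probe sets and the other 8 genes had 1 each. The probe set listed for Cdkn1a, which encodes p21, also carried a second gene's symbol, so p21 has no value here.

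D cyclins are made in response to growth signals, bind CDK4 or CDK6, and allow the kinase to phosphorylate the retinoblastoma pocket proteins, which then release E2F factors to switch on genes of DNA replication. INK4 proteins (here Cdkn2c and Cdkn2d) bind CDK4 and CDK6 directly. CIP/KIP proteins (Cdkn1a, Cdkn1b, Cdkn1c) bind cyclin and kinase together and also restrain CDK2. In red cell formation, cyclin D3 is known from mouse genetics to set the number of divisions before maturation, CDK6 supports the expansion of blood progenitors, and CDK inhibitors accumulate as erythroblasts leave the cycle. D cyclin mRNAs are short-lived, and AU-rich stretches near their ends are known to be bound by proteins that control their decay.

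The study measured which RNAs an antibody pulls down. Early erythroid progenitors of C57BL/6 mouse fetal liver at E14.5 were purified in a magnetic step against lineage-positive, Sca-1 positive, CD16/32 positive, CD41 positive and CD34 positive cells, followed by a sort for c-Kit with low CD71. The lysate was incubated with control rabbit IgG (group IgG, 2 arrays) or with an antibody specific for an RNA-binding protein (group RBP, 2 arrays), and the recovered RNA was labelled for Affymetrix whole-transcript arrays. The labels leave the protein unnamed. From knowledge of the published work it is probably ZFP36L2, a relative of tristetraprolin that binds AU-rich mRNA ends, an identity that was not tested here. No array of input RNA was analysed here, and no label states separate cell preparations for the replicates, so the p-values cover only array-to-array spread that may be technical.

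All values are log2 levels, 1 per probe set and array, and a difference is the RBP mean minus the IgG mean. A gene is called higher or lower where limma's test, adjusted by the Benjamini-Hochberg method over 19938 genes, gave a p under 0.05. The background level of 5.34 is the 95th percentile of chemosensory receptor genes, which progenitors are not known to use. All 10 early erythroid markers lay above it, among them Kit, the receptor used in the sort, at 11.07 on IgG and 11.76 on RBP arrays. Of 7 granulocyte and mast cell markers, 6 also lay above it, and the summed level of those 7 ran from 11.42 to 12.54 on IgG arrays and from 11.2 to 12.14 on RBP arrays. The higher value of each pair was that of replicate 1, in which all 7 markers were higher in both groups. Across all genes the share called higher differed by level. It was 36.3% of the 12906 genes above background, against 0.782% of the 7032 others. The class was set by the mean over all 4 arrays, so high RBP levels can themselves place a gene above background. The contrast between the 2 shares is therefore partly built in. The number of arrays limits the precision. Each level is of RNA recovered with an antibody, not of the lysate itself. It does not tell apart fewer cells of a type, less RNA per cell and weaker recovery.

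The comparison of RBP with IgG arrays asks which mRNAs the antibody recovers beyond the control. Of the 9 measured genes, Ccnd2, Ccnd3, Cdk6 and Cdkn2c were higher with the RBP antibody, and the other 5 were not called. The folds were 1.68 to 1.76 for Ccnd2, Ccnd3 and Cdk6, while for Cdkn2c, whose IgG levels lie below background, no exact fold can be given. The 4 called genes make 44.4% of the 9, while 23.8% of all genes were called higher in the same test. Of genes with a mean level above background, as all 9 have, 36.3% were called higher. Cdkn2c has a mean level above background only through its RBP arrays. None of the 9 was called lower, against 6.54% of all genes. At an unadjusted p under 0.05, limma gave 5 of the 9 higher and 1 lower, against 5911 and 2940 of all 19938 genes. Both RBP arrays stood above both IgG arrays in 7 of the 9 (37.4% of all genes did so), below them in 1 (36.2% of all genes), and the groups overlapped in 1. The median difference over the 9 was 0.61, against -0.02 over all genes and 0.39 over genes above background. Without RBP replicate 1, 0 of the 9 were called higher (4 at an unadjusted p under 0.05 in limma), without RBP replicate 2 only Ccnd1 was, and with the trend of the difference on level removed only Cdkn2c was; the same settings cut the calls over all genes from 4741 to 1724, 2058 and 1000.

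**Figure D1:**
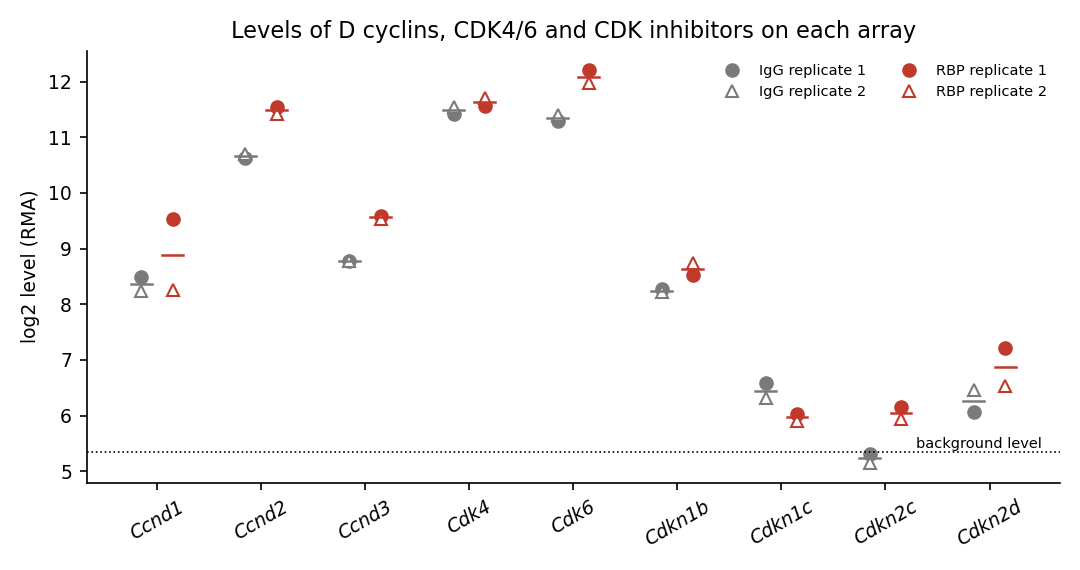
Log2 level (vertical axis) of each of the 9 genes on each array, with IgG arrays in grey and RBP arrays in red, replicate 1 as filled circles and replicate 2 as open triangles. Short lines are group means and the dotted line is the background level of 5.34. The RBP points lie above the IgG points for 7 genes and below them for Cdkn1c, and the RBP arrays of Ccnd1 lie far apart, at 9.53 and 8.25.

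The D cyclins, which carry the growth signal, split into a pair with narrow replicate spread and 1 gene whose RBP arrays disagreed. Ccnd2 measured 10.63 and 10.70 with IgG against 11.54 and 11.42 with the RBP antibody. Both RBP arrays were high and the groups stood apart by far more than their replicates did, with a difference of 0.81 ± 0.15 (SE; limma, adjusted p = 0.0122), or 1.76-fold. Ccnd3, the D cyclin best known from late erythroid divisions, measured 8.78 and 8.77 on IgG and 9.59 and 9.53 on RBP arrays. Its replicates were nearly equal within each group and its difference was 0.78 ± 0.14 (limma, adjusted p = 0.0124), or 1.72-fold. The log2 ratio of Ccnd2 to Ccnd3 within an array changed by 0.03 between the groups. Its exact two-sided permutation p was 0.667, and 1 after adjustment over the 6 pairs of members compared. With 2 arrays against 2 this test cannot give a p under 0.333, so it does not show that the ratio was unchanged.

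Ccnd1, the D cyclin of many tissues outside blood, measured 8.49 and 8.23 on IgG arrays and 9.53 and 8.25 on RBP arrays. RBP replicate 1 alone was high, and replicate 2 lay inside the IgG range. The difference of 0.53 ± 0.41 was not called (limma, adjusted p = 0.35), with a 95% confidence interval from -0.49 to 1.54 that holds the differences of Ccnd2 and Ccnd3 as well as 0. Without RBP replicate 1 the difference was -0.11 (limma, adjusted p = 0.819), and without RBP replicate 2 it was 1.17 (limma, adjusted p = 0.0445). The gap of 1.28 between the RBP arrays of Ccnd1 was exceeded by 0.181% of all genes. Other genes with large gaps of the same sign, picked after their values were seen, were Slc4a1, the anion exchanger of red cells (1.64), Ctsg, a granule protease of granulocytes (1.32), and Alb, the albumin of hepatocytes (1.5). The late erythroid list, which holds Slc4a1, had a summed level of 10.78 on RBP replicate 1 and 10.83 on replicate 2. That sum leans on Tfrc, the list's gene of highest level, at 10.17 and 10.45. Of the 6 measured genes of the list, 4 were higher on RBP replicate 1. The summed hepatocyte markers stood at 9.40 on RBP replicate 1 and 8.72 on replicate 2, and the macrophage markers at 10.00 and 9.19. The granulocyte and mast cell markers, which include Ctsg, stood at 12.14 and 11.20. On the IgG arrays, where Ccnd1 differed by 0.26 between replicates, these sums were 9.34 and 8.73 for hepatocytes and 9.81 and 9.46 for macrophages. For granulocytes and mast cells they were 12.54 and 11.42. The part of such cells in the Ccnd1 value was not tested.

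Of the kinases, Cdk6 was called and Cdk4 was not. Cdk6, the D cyclin kinase prominent in blood progenitors, measured 11.29 and 11.39 on IgG arrays and 12.20 and 11.98 on RBP arrays. Both RBP arrays were high, and the difference was 0.75 ± 0.16 (SE; limma, adjusted p = 0.0188), or 1.68-fold. Cdk4, its close relative, measured 11.42 and 11.54 on IgG arrays and 11.56 and 11.70 on RBP arrays. The RBP arrays were both above the IgG arrays, but by only 0.15 ± 0.15 on average, which was not called (limma, adjusted p = 0.469). The 95% confidence intervals, from -0.23 to 0.52 for Cdk4 and from 0.36 to 1.14 for Cdk6, overlap. The log2 ratio of Cdk6 to Cdk4 within an array was -0.12 and -0.16 on IgG arrays and 0.64 and 0.28 on RBP arrays, a change of 0.60. Its exact two-sided permutation p was 0.333, the smallest that 2 arrays against 2 allow, and 1 after adjustment over the 6 pairs of members compared.

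Ccnd2, Ccnd3 and Cdk6 all lost their call when either RBP array was left out, at similar differences. Without RBP replicate 1 they differed by 0.75, 0.75 and 0.64 (limma, adjusted p from 0.121 to 0.181), and without RBP replicate 2 by 0.87, 0.81 and 0.86 (adjusted p from 0.0784 to 0.0932). With the trend of the difference on level removed, none of the 3 was called: Ccnd2 differed by 0.27, Ccnd3 by 0.02 and Cdk6 by 0.30 (limma, adjusted p = 0.301, 0.953 and 0.279), while Cdk4 turned to -0.33 (adjusted p = 0.228) and Ccnd1 to -0.25 (adjusted p = 0.738). Quantile normalization kept the calls of Ccnd2 and Cdk6 and ended that of Ccnd3, at 0.26 (limma, adjusted p = 0.299).

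**Figure D2:**
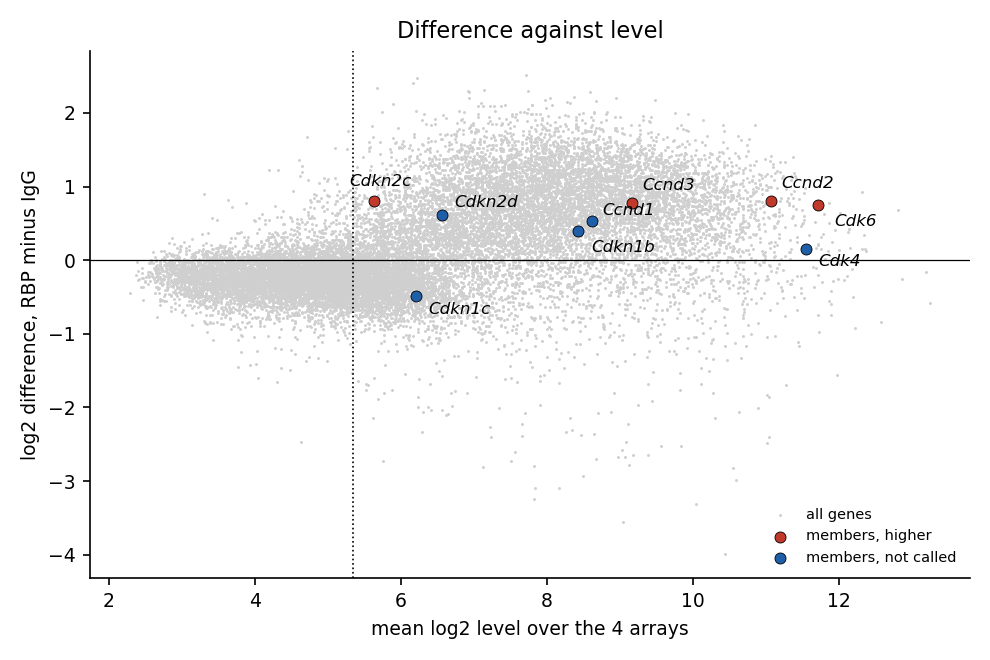
Log2 difference, RBP minus IgG (vertical axis), against the mean log2 level over the 4 arrays (horizontal axis), with every gene in grey, the 4 members called higher in red and the 5 not called in blue. The dotted line marks the background level of 5.34. Relative to the level trend of the grey cloud, Ccnd3 lies at 0.02, Ccnd2 at 0.27, Cdk6 at 0.30 and Cdkn2c at 1.01.

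Among the INK4 inhibitors, Cdkn2c, which encodes p18, was called higher. It measured 5.31 and 5.15 on IgG arrays and 6.15 and 5.94 on RBP arrays. The groups stood apart, with a difference of 0.81 ± 0.16 (SE; limma, adjusted p = 0.0159). Both IgG levels lay below the background level, so the size of this difference is uncertain. Cdkn2c was the only one of the 9 still called higher after removal of the level trend, at 1.01 (limma, adjusted p = 0.0228), and it was also called under quantile normalization and chemosensory centring. Its call was lost without RBP replicate 1 (0.71, limma adjusted p = 0.147) and without RBP replicate 2 (0.91, adjusted p = 0.0733).

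Cdkn2d, which encodes p19, the other INK4 protein in the set, measured 6.06 and 6.46 on IgG arrays and 7.21 and 6.53 on RBP arrays. The groups did not overlap, but RBP replicate 2 exceeded IgG replicate 2 only slightly, and the difference of 0.61 ± 0.27 was not called (limma, adjusted p = 0.139; 95% confidence interval from -0.06 to 1.28). RBP replicate 1 was the higher by 0.68, a gap exceeded by 2.4% of all genes. Without that array the difference was 0.27, and without RBP replicate 2 it was 0.95. With each array centred on the chemosensory genes Cdkn2d was called, at 0.93 (limma, adjusted p = 0.048). This centring raises the difference of every gene by the same amount, and it called 7080 of all 19938 genes higher.

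The CIP/KIP inhibitors gave no call. Cdkn1b encodes p27, which holds cells out of the cycle. Its probe set of higher level measured 8.27 and 8.22 on IgG arrays and 8.53 and 8.74 on RBP arrays. The RBP arrays were both the higher, with a difference of 0.39 ± 0.15 (SE; limma, adjusted p = 0.107; 95% confidence interval from 0.01 to 0.77). The second Cdkn1b probe set, at 6.80 and 5.67 against 7.12 and 6.40, overlapped between groups and differed by 0.53 ± 0.42 (limma over all single-symbol probe sets, adjusted p = 0.363). The direction of Cdkn1b depended on the scaling. It was called higher with chemosensory centring (0.70; limma, adjusted p = 0.0147) and turned to -0.14 with quantile normalization (adjusted p = 0.603) and -0.39 with the level trend removed (adjusted p = 0.166).

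Cdkn1c, which encodes p57, was the only one of the 9 with a negative difference. It measured 6.59 and 6.32 on IgG arrays and 6.03 and 5.91 on RBP arrays. Both RBP arrays were below both IgG arrays, and the difference of -0.48 ± 0.16 did not pass (SE; limma, adjusted p = 0.0736; 95% confidence interval from -0.89 to -0.08). It was called lower without IgG replicate 2 (-0.62; limma, adjusted p = 0.031) and stayed negative in every setting tried, from -0.62 to -0.17. The log2 ratio of Cdkn1b to Cdkn1c within an array was 1.68 and 1.90 on IgG arrays and 2.50 and 2.82 on RBP arrays, with an exact two-sided permutation p of 0.333, or 1 over the 6 pairs.

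**Figure D3:**
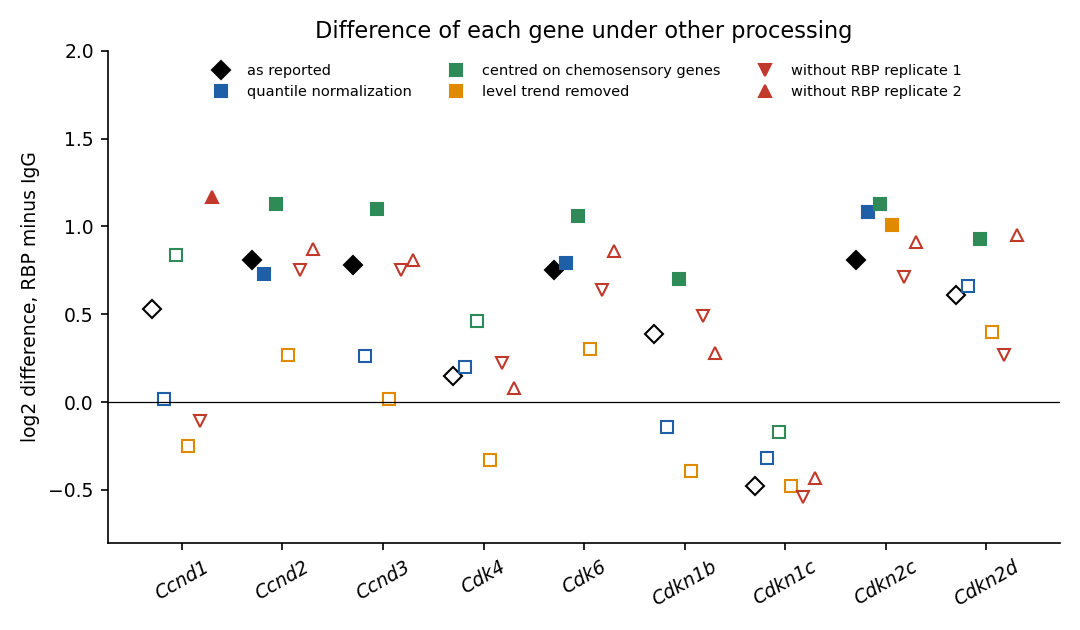
Log2 difference, RBP minus IgG (vertical axis), of each of the 9 genes as reported and under 5 other ways of processing, with filled symbols where limma's adjusted p was under 0.05. Cdkn2c stays between 0.71 and 1.13, Cdkn1c stays below 0, and Ccnd1 spans -0.25 to 1.17.

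Genes whose 4 levels were closest to those of a D cyclin or its kinase were found by root mean square distance on the log2 scale over the 4 arrays. Closest to Ccnd2 was Naa50 (distance 0.0401), to Ccnd3 Gaa (0.0498), to Cdk4 Ptbp1 (0.0691) and to Cdk6 Zfp36l2 (0.0708). The closest gene to Ccnd1, Zfp369, was farther off (0.175) and shared its uneven RBP arrays, at 9.26 and 8.35. With 4 arrays this likeness reflects level and group difference together.

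The rest of the G1/S machinery was described from a list of 49 genes, of which 46 were measured, all above background. In limma's test 21 were higher, 1 was lower and 24 were not called. The share called higher, 45.7%, compares with 36.3% of all genes above background, and the list median was 0.59. Over all genes 6.54% were called lower. Without RBP replicate 1, 7 were called higher, and without RBP replicate 2, 9 were. Removal of the level trend left 2 higher, Rbl2 and Fbxw7, and 2 lower. The lower genes were Cdk2 (-0.80, limma adjusted p = 0.0279) and Tfdp1 (-0.84, limma adjusted p = 0.0271). In the same setting 1000 of all 19938 genes were called higher and 1065 lower. Fbxw7, Cdk2 and Tfdp1 were named after their values were seen.

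The pocket proteins, the substrates of CDK4 and CDK6, were all called higher, 3 of 3, against 36.3% of all genes above background. With the level trend removed, 1 of them, Rbl2, was still called. Rbl2, which encodes p130 of resting cells, measured 7.43 and 7.32 on IgG arrays and 9.04 and 8.96 on RBP arrays, a difference of 1.63 ± 0.15 (SE; limma, adjusted p = 0.00558). It was called in all 12 alternative settings. Rbl1, which encodes p107, differed by 1.21 ± 0.16 and was not called with the level trend removed (0.48; limma, adjusted p = 0.122). Rb1, which encodes the retinoblastoma protein, passed narrowly at 0.67 ± 0.19 (limma, adjusted p = 0.0464) and turned to -0.10 with the level trend removed (adjusted p = 0.787). It is named outside the rule, after its values were seen. Of 10 E2F and DP factors, some of which pocket proteins release, 7 were higher, and 0 were with the level trend removed. The largest differences were those of the repressor E2f6 (1.49 ± 0.16) and the activator E2f3 (1.30 ± 0.16). Neither was called with the level trend removed, at 0.71 and 0.54 (limma, adjusted p = 0.05 and 0.0874). Both differences exceeded those of every D cyclin and kinase above, a comparison of sizes that was not tested.

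For comparison, 36.3% of all genes above background were called higher. Of 6 measured genes of cyclins E, A and B and their kinases, which act after the D cyclins, 1 was called higher. This was Ccne1, at 0.93 ± 0.17 (SE; limma, adjusted p = 0.012), which lost its call without RBP replicate 1 (adjusted p = 0.0587), without RBP replicate 2 (adjusted p = 0.0973) and with quantile normalization (0.48, adjusted p = 0.126). Ccne2 differed by 0.61 ± 0.23 and fell short of the threshold (adjusted p = 0.098 by limma), while it was called without IgG replicate 1 (0.93, adjusted p = 0.0145). Of the 3 genes of the CDK-activating kinase, which phosphorylates CDKs, Cdk7 was higher (0.75 ± 0.19; limma, adjusted p = 0.0321) and Ccnh, at 0.36 ± 0.15, was not called. The Cdk7 call was lost without either RBP array (limma, adjusted p = 0.109 and 0.203) and without IgG replicate 2 (adjusted p = 0.0514). Averaged over its probe sets, Cdk7 differed by 1.56 (limma, adjusted p = 0.00679). Of 5 CDC25 phosphatases and WEE kinases, which remove or add inhibitory phosphates on CDKs, 3 were higher, among them Cdc25a (0.85 ± 0.16) and Cdc25b (0.74 ± 0.19). Cdc25a lost its call without either RBP array (limma, adjusted p = 0.131 and 0.0638), and Cdc25b lost it without any 1 of the 4 arrays (adjusted p from 0.0564 to 0.264). Quantile normalization also ended the calls of Cdk7 (0.44; limma, adjusted p = 0.243), Cdc25a (0.61; 0.0735) and Cdc25b (0.30; 0.332), and none of Ccne1, Cdk7, Cdc25a and Cdc25b was called with the level trend removed (differences from 0.01 to 0.22; limma, adjusted p from 0.415 to 0.969).

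Of 10 listed ubiquitin ligase subunits and associated proteins, 3 were higher (30%, against 36.3% of all genes above background). Some of them direct the destruction of cyclins and CDK inhibitors. Cul1, the scaffold of SCF ligases, differed by 1.16 ± 0.15 (SE; limma, adjusted p = 0.00599). Fbxo31, an F-box protein that targets cyclin D1, differed by 1.14 ± 0.21 (limma, adjusted p = 0.0131), and its call was lost without RBP replicate 1 (adjusted p = 0.0826). Of 7 upstream regulators, 3 were higher (42.9%), among them Foxo3, which encodes a factor that raises p27 (1.17 ± 0.15), and Gsk3b, a kinase that marks cyclin D1 for export and destruction (1.05 ± 0.15). Gsk3b was not called without RBP replicate 1 (limma, adjusted p = 0.0545) or RBP replicate 2 (adjusted p = 0.053). Quantile normalization ended the calls of Fbxo31 (0.61; limma, adjusted p = 0.129) and Gsk3b (0.55; 0.0724), and none of Cul1, Fbxo31, Foxo3 and Gsk3b was called with the level trend removed (differences from 0.30 to 0.46; limma, adjusted p from 0.106 to 0.329).

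The INK4 genes outside the set had negative differences. Cdkn2a, which encodes p16 and the ARF protein, measured 6.57 and 6.23 on IgG arrays and 5.77 and 5.84 on RBP arrays. Its difference of -0.60 ± 0.17 was narrowly called lower (SE; limma, adjusted p = 0.0491), a call lost without IgG replicate 1 (adjusted p = 0.0709), without RBP replicate 1 (0.267), without RBP replicate 2 (0.202), with chemosensory centring (-0.28, adjusted p = 0.239), with quantile normalization (-0.40, 0.264), with the level trend removed (-0.54, 0.107) and with every probe set tested (0.0508). It was called in 5 of 12 alternative settings. Cdkn2b, which encodes p15, differed by -0.32 ± 0.15 and did not pass (limma, adjusted p = 0.158). The contrast between Cdkn2c and these genes was not tested as such.

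**Figure D4:**
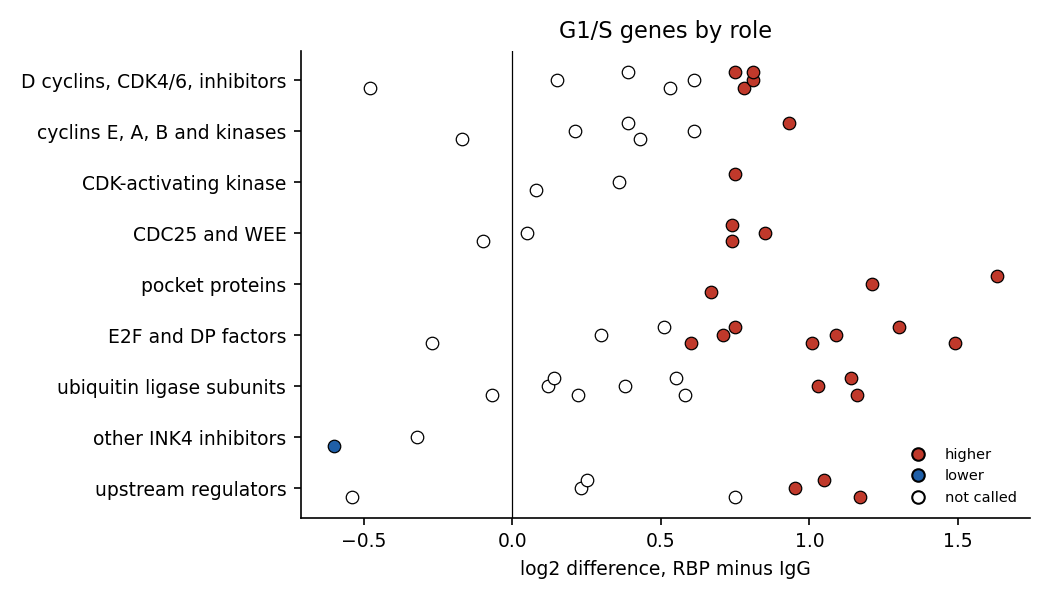
Log2 difference, RBP minus IgG (horizontal axis), of each measured gene, by role, with red for genes called higher, blue for lower and white for not called. The 9 genes of the top row span -0.48 to 0.81, the 3 pocket proteins 0.67 to 1.63 and the 10 E2F and DP factors -0.27 to 1.49.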

How the data were processed

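RNA from 2 IgG and 2 RBP immunoprecipitates was measured on 1 array each. The authors deposited log2 levels summarised with RMA and affy, per the submitters' processing notes. The sources used here do not state the versions or the background step. The deposited arrays did not share a distribution. Over all probe sets the interquartile range was 2.91 and 2.87 on IgG arrays and 3.73 and 3.61 on RBP arrays. Medians were 5.85 and 5.93 on IgG arrays and 5.57 and 5.62 on RBP arrays. The part of this wider scale in the differences was not tested. Values ran from 1.83 to 13.87, and the scale was taken from that range. Gene names came from the platform annotation: 21789 probe sets had 1 symbol, 1621 several and 12146 none. The 9 measured members matched RefSeq names (GRCm38.p6). A gene was represented by its probe set of highest mean over all arrays.

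The test was limma 3.58.1 in R 4.3.3 (lmFit, eBayes; residual degrees of freedom 2, prior 3.76), two-sided, with no filter on level, on the 19938 genes. It was tried on simulated data for the same 19938 genes, with variances limma had fitted to these arrays. The test called 37 of 50 genes raised by 1 and 40 of 50 lowered by 1 on the log2 scale, with 14 false calls in all. The simulated arrays had independent noise and no trend of the difference on level. The 14 therefore do not estimate the false calls in the real arrays.

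Alternatives were quantile normalization of all probe sets, centring on 1237 chemosensory receptor genes, a filter at the background level, averaging of each gene's probe sets, every probe set, the replicate number as a block, each array left out, eBayes with trend and robust options, and removal of the loess trend (span 0.3) on level. Named from the G1/S list were the 2 genes of each role with the largest absolute difference. Members and lists were chosen with earlier results of these data known. Ccnb1, Skp1a and Trp53 of the list had no single-symbol probe set. Of the marker lists, limma called 6 of 10 early erythroid genes higher, and 1 of 6 late erythroid and 1 of 4 megakaryocyte genes. Called lower were 2 of 8 macrophage and 1 of 7 granulocyte and mast cell genes. For comparison, 23.8% of all genes were called higher (36.3% of those above background) and 6.54% lower. With the level trend removed, 0 of the 10 early erythroid genes were called (median -0.07), while 1 late erythroid gene was called higher. In the main fit limma called 0 of 7 hepatocyte, 0 of 5 lymphoid and 0 of 7 endothelial and stromal genes (1, 0 and 2 at an unadjusted p under 0.05).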

Additional observations from a re-analysis of the deposited data

How the results depend on the processing

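Of 108 member differences recomputed (9 genes, 12 settings), 85 kept direction and call, 12 lost the call, 6 gained it and 5 changed sign; causes were not tested. Over all genes the 4741 higher and 1304 lower became 2207 and 553 with quantile normalization, 7080 and 317 with chemosensory centring, where the median over all genes was 0.29 in place of -0.02, and 1000 and 1065 with the level trend removed. Leaving out 1 array gave 1724 to 5153 higher and 99 to 2905 lower.

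With the level trend removed, 1 member was called higher (Cdkn2c), and the differences were -0.25 for Ccnd1, 0.27 for Ccnd2, 0.02 for Ccnd3, -0.33 for Cdk4, 0.30 for Cdk6, -0.39 for Cdkn1b, -0.09 for Ccne2 and -0.41 for Ccnh. With quantile normalization Ccnd3 gave 0.26, Cdkn1b -0.14 and Ccnh -0.16. Centring called Cdkn1b (0.70) and Cdkn2d (0.93). Without 1 array, Ccnd1 ran from -0.11 to 1.17, Ccnd2 from 0.75 to 0.87, Ccnd3 from 0.75 to 0.81, Cdk6 from 0.64 to 0.86, Cdkn1c from -0.62 to -0.35, Cdkn2c from 0.71 to 0.91 and Cdkn2d from 0.27 to 0.95; 0 to 4 members were higher and 0 to 1 lower. At 0 higher, without RBP replicate 1, limma still gave 4 at an unadjusted p under 0.05 and 0 lower. Such a fit assumes that the lone array varies like the other group.

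Of the G1/S list, 7 genes were higher with quantile normalization, 32 with centring, 2 with the level trend removed and 7 to 23 without 1 array. Genes called lower numbered 0 with quantile normalization (4 at an unadjusted p under 0.05 in limma), 0 with centring (0 unadjusted), 0 with every probe set (2 unadjusted), 2 with the level trend removed and 0 to 1 without 1 array (0 to 2 unadjusted).

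The replicate numbers are shared by label alone. Same-numbered arrays deviated together across genes (r = 0.255), which with 2 pairs does not settle a pairing. With the replicate block, 5885 genes were higher and 2199 lower, 5 members were higher and 1 lower, and 2 G1/S genes were lower. Cdkn2d was then called higher (0.61; limma, adjusted p = 0.0455) and Cdkn1c lower (-0.48; adjusted p = 0.0482), on 1 residual degree of freedom.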
